A study of Sus scrofa with 14 samples.

Results

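Milk ejection is the work of myoepithelial cells, and the genes described here are the receptor that starts it and the contraction machinery that carries it out. The set comprised 10 genes, OXTR, MYH11, ACTA2, MYLK, TAGLN, CNN1, LMOD1, CALD1, TPM1 and TPM2, chosen by name for their role, with earlier results of these data known. All 10 were found among the 30071 gene identifiers of the pig mammary gland and milk matrices. In the tissue sections 9 were listed by symbol and TPM2 was found by its identifier alone. The glands came from multiparous sows in their second breeding cycle, sampled at day 90 of gestation (G90), at day 0 (L0) and day 20 (L20) of lactation, and at 2 days (PI2) and 7 days (PI7) of natural involution. No drug or genetic change was applied, and all stages share the same design, 2 sows each, with 1 single-nucleus library from frozen gland per sow. Spatial transcriptomics gave 1 Visium section from G90 and 1 from PI2, and single-cell sequencing of milk gave 1 sample labelled L0 and 1 labelled L20. In what follows a pair of values at a stage is replicate 1 and then replicate 2, and L0 and L20 together are called lactation (4 libraries) against the other stages (6 libraries).

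Oxytocin is released from the pituitary during suckling and binds its receptor OXTR, a Gq-coupled receptor that raises calcium inside the cell. Calcium then activates myosin light chain kinase (MYLK), which phosphorylates the myosin that pulls on smooth muscle actin. In the mammary gland the cells that respond are myoepithelial cells, an outer epithelial layer that wraps the alveoli and ducts. Mural cells, the pericytes and smooth muscle cells of vessels, use the same contraction genes, so the 2 sources have to be separated before a gland level can be read.

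The promoter of the receptor is shown because OXTR had the largest difference of the 10 members between TP63 and RGS5 nuclei. OXTR lies on chromosome 13 on the minus strand, and the 300 bases before its start site in the RefSeq annotation of Sscrofa11.1 are those of chr13:65153481-65153780, before the start of a curated transcript. The annotated gene reaches further, to base 65155543, so the window lies within it and this is not the only start that could be chosen. The sequence is all in lower case because no element is marked.
OXTR: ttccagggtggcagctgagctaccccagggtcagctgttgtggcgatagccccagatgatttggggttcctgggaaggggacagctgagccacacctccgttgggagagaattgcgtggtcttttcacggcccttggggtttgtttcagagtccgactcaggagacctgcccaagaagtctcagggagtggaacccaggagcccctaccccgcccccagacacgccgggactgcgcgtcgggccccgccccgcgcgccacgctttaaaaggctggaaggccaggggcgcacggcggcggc
The deposited matrices pair identifiers with symbols and with no position, so the position was matched by symbol.

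Nuclei were sorted into gates by 1 or more UMIs (unique molecular identifiers, each an RNA molecule) of a marker. The TP63 gate, for myoepithelial nuclei, held 6664 of 126833 nuclei (5.25%, 229 to 1379 a library). The RGS5 gate, for mural nuclei, held 1744 (1.38%, 25 to 612 a library), and 125 nuclei with UMIs of both genes were left out. Of nuclei with neither gene, those with a UMI of EPCAM or ELF5 and of no other class formed the luminal gate (35168 nuclei), and endothelial, fibroblast, immune (PTPRC) and adipocyte gates were set in the same way. Nuclei with UMIs of several of these classes (34570, 27.3% of all) and with none (25488, 20.1%) entered no gate. TP63 and RGS5 nuclei were kept whether or not they held UMIs of another class, so they were selected less strictly than the gates they are compared with. Gate labels were read against markers that did not set the gate. KRT14 and COL17A1, a keratin and a collagen of basal epithelium, had medians of 321 and 163 CPM (UMIs of the gene per 1000000 UMIs of the summed nuclei) in the TP63 gate against 148 and 48.1 in the RGS5 gate, and KRT5 38.4 against 28.2. PDGFRB, NOTCH3 and MCAM, of mural cells, had medians of 219, 145 and 97.6 CPM in the RGS5 gate against 15.0, 12.0 and 3.91 in the TP63 gate, while ABCC9 was at 0 in 8 of 10 RGS5 libraries. Luminal markers were present in both, at a median of 1159 CPM in the TP63 gate and 1145 in the RGS5 gate, against 1851 in the luminal gate, which its own gate genes raise. The RGS5 gate also held endothelial markers at a median of 715 CPM and fibroblast markers at 530 CPM. Its mural markers summed to a median of 1150 CPM with RGS5, the gate gene, which alone had a median of 699 CPM. The TP63 gate held endothelial and fibroblast markers at medians of 290 and 327 CPM, and KRT14 was also at 190 CPM in luminal nuclei. No UMI of another class was present in 1592 of 6664 TP63 nuclei and in 437 of 1744 RGS5 nuclei. Both gates are therefore mixed sets, and not myoepithelial or mural nuclei alone. The part of these other classes in the levels below was not tested beyond the alternative gates given beside the results. CSN2 (beta-casein, a milk protein) in luminal nuclei did not follow the stage labels in every library, at 136 and 2665 CPM in G90 sows, 2009 and 2205 in L0 sows, 207 and 14.2 in L20 sows, 2.71 and 534 in PI2 sows, and 2.22 and 0.532 in PI7 sows. Total UMIs ranged from 18962138 to 53165191 a library. Any 2 libraries shared 52 to 205 barcodes, 0.55% to 1.23% of the smaller library.

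OXTR, the receptor itself, was highest of the 7 gates in the TP63 gate in 10 of 10 libraries. Its level in TP63 nuclei was 64.8 and 27.5 CPM in G90 sows, 36.9 and 69.4 in L0 sows, 25.7 and 63.2 in L20 sows, 114 and 79.2 in PI2 sows, and 67.2 and 227 in PI7 sows. The PI7 sow of replicate 2 stood above all others, and the stages overlapped. In RGS5 nuclei of the same libraries the level was 2.21 and 0 CPM in G90 sows, 23.1 and 19.4 in L0 sows, 0 and 0 in L20 sows, 4.31 and 10.6 in PI2 sows, and 9.31 and 14.8 in PI7 sows, from 0 to 15 UMIs a library. Every RGS5 value lay below the TP63 value of the same library. Where no OXTR UMI was seen in RGS5 nuclei, 3 counts would correspond to 20.3 CPM at G90 replicate 2, 18.2 CPM at L20 replicate 1 and 3.62 CPM in L20 sows replicate 2, each below the TP63 value of that library. By median CPM the order of gates was TP63 (66.0), RGS5 (6.81), immune (5.43), fibroblast (4.77), endothelial (4.005), luminal (3.22) and adipocyte (0), and from RGS5 down the ranges of neighbouring gates overlapped. Nuclei with no gate marker had a median of 19.0 CPM (4.27 to 45.7), above every gate except TP63, and held 10% to 48.9% of the OXTR UMIs of a library.

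The share of nuclei with an OXTR UMI was 4.30% to 24.7% in the TP63 gate, where the median nucleus held 1552 to 3383 UMIs, and 0% to 1.24% in the immune gate, where it held 909 to 1629. Thinned to 500 UMIs a nucleus, with no nucleus left out, the share was 1.35% to 8.45% in the TP63 gate, 0% to 1.02% in the RGS5 gate and 0% to 0.62% in the immune gate. The unthinned share had a median of 1.27% in the RGS5 gate and 0.66% in the immune gate, set here as a class not known for OXTR, and by CPM RGS5 nuclei lay above immune nuclei in 3 of 10 libraries. Whether the OXTR UMIs of RGS5 nuclei came from RNA outside the nuclei was not tested. TP63 nuclei, 2.45% to 10.4% of a library, held 18.2% to 58.5% of all its OXTR UMIs, with a median of 45.2%.

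**Figure D1:**
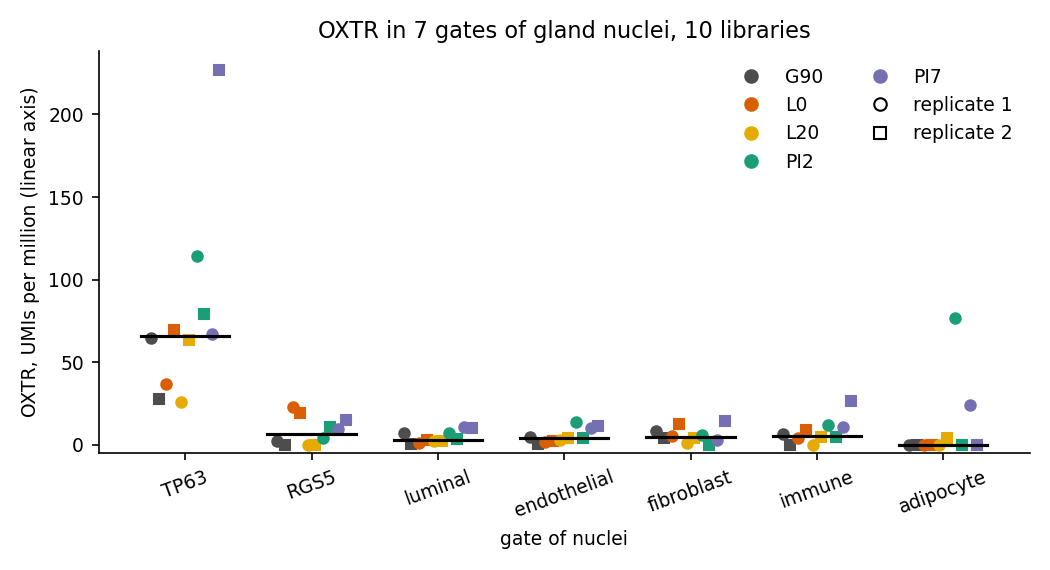
Points give OXTR in CPM in each of 10 libraries (stage by colour and replicate by shape) for 7 gates of nuclei, and bars give the median of a gate. The TP63 gate has a median of 66.0, and the medians of the other gates plotted lie at 6.81 or below. Nuclei with no gate marker, with a median of 19.0, are not plotted.

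The motor and its activator came next. MYH11, the smooth muscle myosin heavy chain, was at 958 and 316 CPM in G90 sows, 228 and 518 in L0 sows, 164 and 183 in L20 sows, 1354 and 684 in PI2 sows, and 707 and 1650 in PI7 sows in TP63 nuclei. The identifier that the files pair with the symbol MYH11 follows directly, in number, on that of MYH9, a nonmuscle myosin gene on chromosome 5, while RefSeq places MYH11 on chromosome 3. Its genome position was not at hand, so the values may be those of another myosin gene. In RGS5 nuclei MYH11 was at 312 and 74.4 CPM in G90 sows, 909 and 233 in L0 sows, 133 and 458 in L20 sows, 841 and 117 in PI2 sows, and 326 and 683 in PI7 sows. It was thus higher in TP63 nuclei in 8 of 10 libraries, all except L0 replicate 1 and L20 replicate 2. MYLK was at 513 and 242 CPM in G90 sows, 126 and 285 in L0 sows, 220 and 236 in L20 sows, 697 and 469 in PI2 sows, and 601 and 760 in PI7 sows in TP63 nuclei, and at 47.3 to 246 CPM in RGS5 nuclei. TP63 nuclei held more MYLK in 9 of 10 libraries. ACTA2, smooth muscle alpha-actin, was at 17.7 to 530 CPM in TP63 nuclei and at 47.3 to 962 CPM in RGS5 nuclei, and was highest of the 7 gates in the RGS5 gate in 7 of 10 libraries.

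The proteins that sit on actin filaments had their higher medians in RGS5 nuclei, apart from the tropomyosins. TAGLN (transgelin, an actin-bundling protein) was at 24.9 to 118 CPM in TP63 nuclei and at 27.0 to 424 CPM in RGS5 nuclei, and the RGS5 gate was the highest of 7 in 10 of 10 libraries. LMOD1, which nucleates actin filaments in smooth muscle, was highest in RGS5 nuclei in 8 of 10 libraries, with a median of 32.1 CPM there against 9.75 in TP63 nuclei. CNN1 (calponin, which restrains myosin) had medians of 10.3 CPM in TP63 and 14.7 in RGS5 nuclei, but was higher in TP63 nuclei in 6 of 10 libraries. CALD1 (caldesmon, likewise a brake) had medians of 684 and 979 CPM and was higher in TP63 nuclei in 2 of 10. Fibroblast nuclei had a CALD1 median of 915 CPM, and RGS5 nuclei lay above them in 5 of 10 libraries. The tropomyosins TPM1 and TPM2, which lie along actin and gate its contact with myosin, had medians of 2024 and 125 CPM in TP63 nuclei and 1618 and 111 CPM in RGS5 nuclei. TPM1 was not particular to contractile gates, with a median of 1736 CPM in luminal nuclei.

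TP63 and RGS5 nuclei of the same library were compared in an edgeR quasi-likelihood fit with the library as a block, which asks how the contraction genes divide between these gates. A gene was called at a Benjamini-Hochberg adjusted p under 0.05 over all genes and a log2 difference over 1. Of the 10 members 4 were called, against 5.51% of 12692 genes. Higher in TP63 nuclei were 2 members, OXTR with a log2 difference of 3.50 ± 0.33 (SE, 10 libraries, adjusted p = 3.1e-08) and MYLK with 1.20 ± 0.21 (adjusted p = 1.9e-04), against 1.47% of all genes called higher. Lower were TAGLN with -1.33 ± 0.23 (adjusted p = 2.2e-04) and LMOD1 with -1.35 ± 0.34 (adjusted p = 0.0079), against 4.04% of all genes. TPM1 passed the p limit at a log2 of 0.46, below the fold limit. MYH11 (0.74 ± 0.30, adjusted p = 0.11), ACTA2 (-0.44 ± 0.24), CALD1 (-0.32 ± 0.24), CNN1 (-0.16 ± 0.46) and TPM2 (0.17 ± 0.17) were not called.

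The results for MYH11, MYLK and LMOD1 depended on the gates or libraries used. LMOD1 was no longer called without L0 replicate 1 (-0.986, adjusted p = 0.024) or thinned to 500 UMIs (-1.20, adjusted p = 0.083). A wider gate took nuclei with at least 2 different markers of the myoepithelial list and fewer of the mural list, 19699 nuclei against 6664, or the reverse, 1510 against 1744. Of the myoepithelial list, DST was as high in fibroblast nuclei (median 571 CPM) as in TP63 nuclei (524), and ITGB4 higher in endothelial nuclei (134) than in TP63 nuclei (102), so the wider gate need not hold myoepithelial nuclei alone. With it MYH11 was called lower on the myoepithelial side (-1.17, adjusted p = 6.6e-04), and ACTA2 (-2.17) and CALD1 (-1.41) were called lower too, while MYLK was at -0.065. With nuclei holding no UMI of another gate, 1592 TP63 and 437 RGS5 nuclei, MYH11 was called higher (1.27, adjusted p = 0.0042). L0 replicate 2, with 4 such RGS5 nuclei, was not in that fit. MYH11 was also called higher without L0 replicate 1 (1.07) or without L20 replicate 2 (1.03). OXTR stayed between 3.25 and 4.68 and was called in each of these fits, and TAGLN between -2.23 and -1.04.

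**Figure D2:**
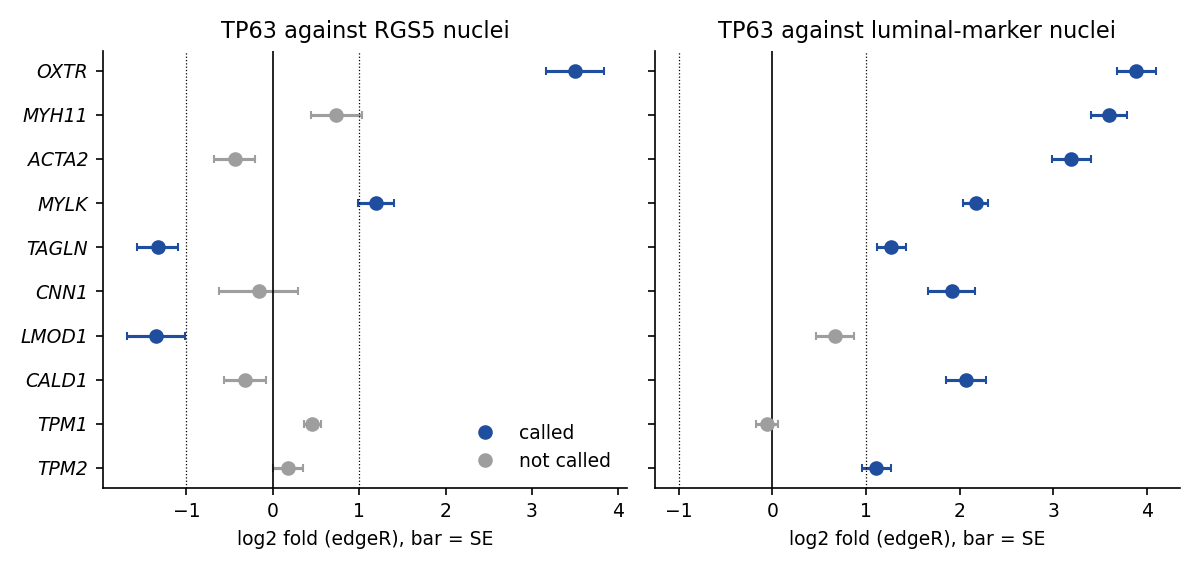
Points give the log2 difference of each member between TP63 nuclei and RGS5 nuclei (left) or luminal nuclei (right) with its SE over 10 libraries, blue where called, and dotted lines mark the fold limit. OXTR (3.50) and MYLK (1.20) lie to the right of the limit on the left panel, and 8 of 10 members do so on the right panel.

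The rest of the pathway was read from a list of 60 genes of receptors, calcium signalling, filaments, light chain phosphatase and relaxation, of which 56 were listed in the matrices. Of 52 tested, 2 were higher and 15 lower in TP63 nuclei, beside the shares of 1.47% and 4.04% of all genes. In the group of receptors and ligands 7 genes were tested, and 6 were called lower in TP63 nuclei. These 6 are receptors of other vasoactive signals, on the opposite side from OXTR. AVPR1A, the vasopressin receptor closest to OXTR, had a log2 difference of -4.78 ± 0.61 (adjusted p = 6.5e-06), and EDNRB, an endothelin receptor, -3.26 ± 0.34 (adjusted p = 1.7e-07). AVPR1A lay near the floor, with 8 UMIs in TP63 and 77 in RGS5 nuclei, and was at 0 in 6 and 3 of 10 libraries. AGTR1, EDNRA, P2RX1 and ADRA1A lay between -2.04 and -1.41. P2RX1 was not called without PI2 replicate 1 (-1.57) or PI7 replicate 2 (-1.71), thinned (-1.75) or with no UMI of another gate (-2.003), and ADRA1A was at 0.47 with the gate of at least 2 markers. On the calcium side PLCB1, a phospholipase that Gq activates, was higher in TP63 nuclei (1.27 ± 0.19, adjusted p = 3.6e-05). So was KCNMA1, the pore of the large calcium-activated potassium channel (1.35 ± 0.10, adjusted p = 1.3e-09). With the gate of at least 2 markers PLCB1 was at 0.066 (adjusted p = 0.85). PLCB4 (-1.22) and the calcium release channel RYR2 (-1.83) were lower, PLCB4 under the fold limit with at least 2 markers (-0.97), thinned (-0.795) or with no UMI of another gate (-0.97). Of the relaxation genes 3 of 4 were lower, the cyclic GMP targets and enzymes PDE5A (-1.70), GUCY1B1 (-1.62) and PRKG1 (-1.12, and -0.93 without L0 replicate 1). Without the library as a block PLCB1, PLCB4, ADRA1A, EDNRA, GUCY1B1 and PRKG1 were not called (adjusted p from 0.082 to 0.27). Among filament genes DES (desmin, -2.95), MYOCD (myocardin, a partner of serum response factor, -2.53) and TPM4 (-1.34) were lower and none of 17 was higher. DES also lay near the floor, with 18 UMIs in TP63 and 39 in RGS5 nuclei, and was at 0 in 6 and 4 of 10 libraries.

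Against luminal nuclei of the same libraries, the inner epithelial layer, 8 of 10 members were called higher in TP63 nuclei and 0 lower, against 4.73% of 17615 genes in either direction, 4.45% higher and 0.284% lower. OXTR had the log2 difference 3.88 ± 0.21 (adjusted p = 1.2e-10), MYH11 3.59 ± 0.19, ACTA2 3.19 ± 0.21, MYLK 2.17 ± 0.14, CALD1 2.06 ± 0.21, CNN1 1.92 ± 0.25, TAGLN 1.27 ± 0.15 and TPM2 1.11 ± 0.15, and all 8 were higher in 10 of 10 libraries. LMOD1 (0.66 ± 0.20, adjusted p = 0.022) stayed under the fold limit and TPM1 was at -0.06 ± 0.12. Of 51 listed pathway genes tested, 12 were higher and 0 lower. KCNMB1, the smooth muscle subunit of the calcium-activated potassium channel (3.77 ± 0.28), and SYNPO2, an actin-binding protein of the Z line (3.45 ± 0.18), had the largest differences of the 12 and were picked for that after their values were seen.

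Stage was then examined, first in sums over all nuclei of a gland, where fewer cells of a type and less RNA per cell cannot be told apart. OXTR was at 16.2 and 2.45 CPM in G90 sows, 5.42 and 7.36 in L0 sows, 4.10 and 7.90 in L20 sows, 12.6 and 5.61 in PI2 sows, and 16.7 and 24.7 in PI7 sows. Values of 4 of the 6 libraries outside lactation lay above all 4 of lactation, and G90 replicate 2 lay below them. MYH11 was at 251 and 33.7 CPM in G90 sows, 78.4 and 66.7 in L0 sows, 26.1 and 58.2 in L20 sows, 194 and 46.9 in PI2 sows, and 225 and 237 in PI7 sows. The groups overlapped, and the 2 sows of G90 and of PI2 lay far apart. No member was called by edgeR in any of the 4 comparisons of adjacent stages (0 of 40 tests, against 0% of all gene tests called), and 4 of 40 had an unadjusted p under 0.05, against 6.44% of all. DESeq2 called 1, CALD1 at L20 against L0 (log2 1.89 ± 0.59, adjusted p = 0.030), against 2.09% of all. In lactation against the other stages 0 of 10 were called (0% of all genes), 2 had an unadjusted p under 0.05 (5.49% of all), and DESeq2 called 0 (0.672% of all). The log2 differences of members ran from -1.35 for MYH11 to 0.58 for TPM2, 7 of 10 below 0, with a median of -0.74 against -0.03 over all genes.

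Shares of the TP63 and RGS5 gates in the gland did not differ beyond their spread, and shares of the other gates were not tested. Among the lactation libraries L20 replicate 2 stood apart, with 3.37% of nuclei in the luminal gate against 33.4% to 52.2% in the others. TP63 nuclei made up 4.26% ± 1.59 (SD, n = 4) of a library in lactation and 5.65% ± 3.02 (n = 6) outside it (exact two-sided permutation test, p = 0.448, 0.486 adjusted over both shares). RGS5 nuclei made up 0.969% ± 0.753 and 1.52% ± 1.296 (exact permutation test, p = 0.486), and 0.0048 is the smallest p that the 210 splits allow.

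Within TP63 nuclei 9 of 10 members had a log2 difference below 0 in lactation, none called by edgeR and 2 by DESeq2, and the groups overlapped for all 10. MYH11 was at 164 to 518 CPM in the 4 lactation libraries and at 316 to 1650 CPM in the 6 others, with 5 of the 6 above all of lactation (edgeR log2 -1.66 ± 0.41, adjusted p = 0.18). MYLK was at 126 to 285 against 242 to 760 CPM (log2 -1.12 ± 0.30, adjusted p = 0.22) and TAGLN at 24.9 to 35.9 against 26.8 to 118 CPM (log2 -1.12 ± 0.33, adjusted p = 0.25). In each of these 3 genes the single low library outside lactation was G90 replicate 2. ACTA2 (-1.003 ± 0.54), CNN1 (-0.97 ± 0.64), CALD1 (-0.72 ± 0.44) and OXTR (-0.66 ± 0.42, adjusted p = 0.57) were also below 0, LMOD1 and TPM2 were at -0.15 and -0.16, and TPM1 was at 0.11. Of 10 members 0 were called, against 0.0072% of all genes (1 gene), and 3 had an unadjusted p under 0.05, against 12% of all. The members' median was -0.84 against -0.04 over all genes. DESeq2 called 2 of 8 members with an adjusted p, MYH11 (-1.60 ± 0.40, adjusted p = 0.0049) and MYLK (-1.06 ± 0.33, adjusted p = 0.037), against 3.17% of all. Leaving out any 1 library gave 0 members called, with MYH11 between -1.97 and -1.39 and OXTR between -1.01 and -0.27. With the gate of at least 2 markers, OXTR (0.15), CNN1 (0.25), LMOD1 (0.10), CALD1 (0.03) and TPM2 (0.52) turned to above 0.

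Between adjacent stages in TP63 nuclei the step from L20 to PI2 was the largest for MYH11, whose 2 sows at PI2 (1354 and 684 CPM) lay above both at L20 (164 and 183 CPM). Its edgeR log2 difference was 2.62 ± 0.63 (adjusted p = 0.62), and DESeq2 called it (2.51 ± 0.62, adjusted p = 0.040). Over all 4 steps edgeR called 0 of 40 member tests, against 0.0018% of all, with 6 at an unadjusted p under 0.05, against 10.7% of all, and DESeq2 called that 1, against 2.52% of all. Of the listed pathway genes 0 were called at any step or in lactation in these nuclei.

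In RGS5 nuclei 7 members passed the filter on low counts, and OXTR, CNN1 and LMOD1 did not. Lactation differed from the other stages by log2 -0.31 (ACTA2) to 0.62 (TPM2), MYH11 by 0.35 ± 0.58 and MYLK by 0.21 ± 0.43. No member was called (0% of all genes), 0 of 7 had an unadjusted p under 0.05 (6.03% of all), and DESeq2 called 0 of 5 with an adjusted p (1.14% of all).

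**Figure D3:**
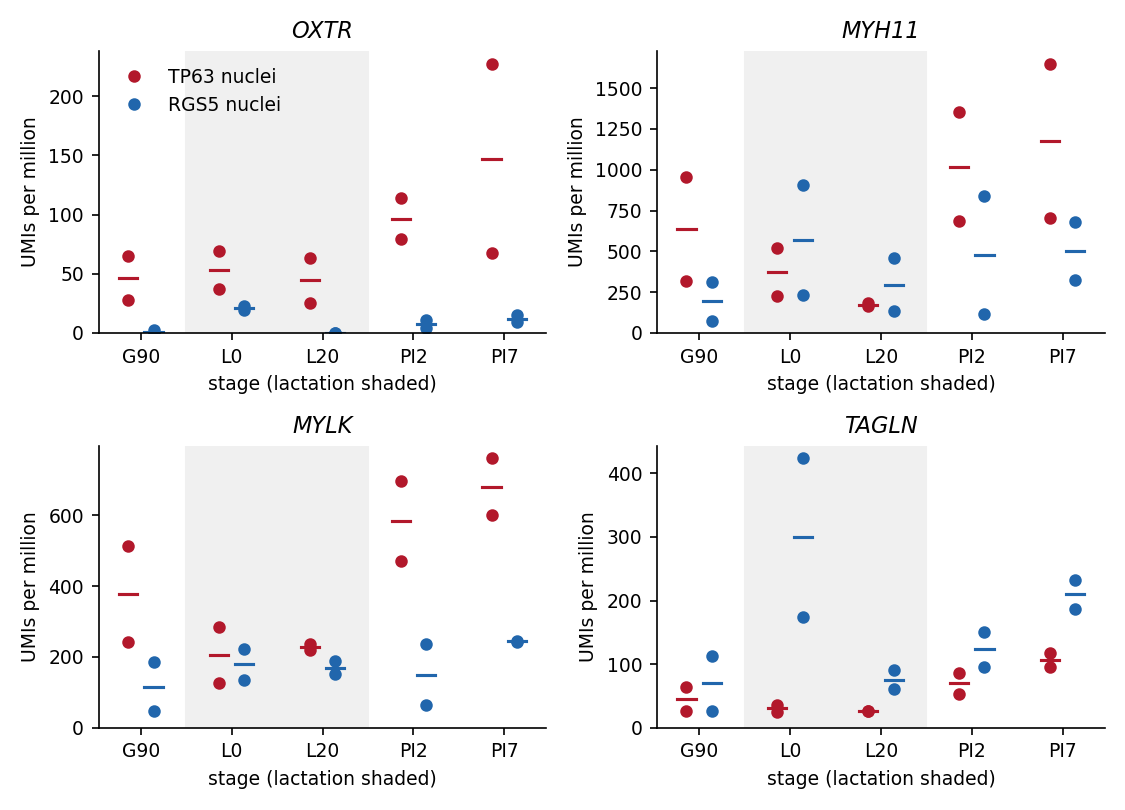
Points give the CPM of OXTR, MYH11, MYLK and TAGLN in TP63 nuclei (red) and RGS5 nuclei (blue) of each library, with a bar for the mean of the 2 libraries of a stage and lactation shaded. MYH11 in RGS5 nuclei of L0 reaches 909, and in TP63 nuclei MYH11 stays at or below 518 in lactation.

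A test of the difference itself, the interaction of gate and stage in 1 edgeR fit, called 3 of 10 members, all with a lactation difference that was lower in TP63 than in RGS5 nuclei, against 0.378% of 12692 genes, 0.0473% higher and 0.331% lower. They were MYH11 (log2 -2.16 ± 0.35, adjusted p = 7.3e-04), MYLK (-1.53 ± 0.29, adjusted p = 0.0036) and TAGLN (-1.58 ± 0.33, adjusted p = 0.0099). OXTR was at 0.98 ± 1.28 and rested on few UMIs in RGS5 nuclei. Of the pathway list EDNRA, FLNA (filamin, an actin cross-linker) and TPM4 were called lower. These calls rested on 1 library. In L0 replicate 1, with 98 RGS5 nuclei, MYH11 reached 909 CPM in RGS5 nuclei against 228 in TP63 nuclei, and without that library 0 members were called and MYH11 was at -0.92. Without L0 replicate 2, whose RGS5 gate held 25 nuclei, 7 were called. DESeq2 called 0 (adjusted p from 0.077 to 0.099 for the 3 genes), and 0 were called with at least 2 gate UMIs or with no UMI of another gate. These 2 gates held 544 and 437 RGS5 nuclei against 1744, so their fits had less data. A library with fewer than 10 nuclei in a gate left the fit. That removed G90 replicate 2 (5 RGS5 nuclei) from the first and L0 replicate 2 (4) from the second, where L0 rested on 1 library of 19 RGS5 nuclei.

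Markers of other cell types were summed in the same nuclei. In TP63 nuclei the 6 luminal markers summed to 366 to 1625 CPM in lactation and 957 to 1344 CPM outside it, the 8 mural markers, with RGS5 at 0 by the gate, to 11.8 to 68.5 and 16.3 to 111 CPM, and the 6 listed myoepithelial markers, TP63 among them, to 724 to 1854 (median 1173) and 731 to 2972 CPM (median 2143), so that they were lower in lactation by median, as were most members. The 6 fibroblast markers ranged from 13.1 to 2410 CPM in lactation and from 29.0 to 555 CPM outside it, with COL1A1, COL1A2, DCN, FBLN1 and LUM each at 0 in at least 1 lactation library and LUM also in at least 1 library outside it. A luminal UMI was present in 15.1% to 84.2% of TP63 nuclei in lactation and in 31.9% to 81.8% outside it, and CSN2 was at 10.3 to 1634 and 0 to 2041 CPM. In RGS5 nuclei the fibroblast markers summed to 253 to 3275 CPM in lactation (median 1526) and 149 to 1724 CPM outside it (median 530), the adipocyte markers had medians of 397 and 213 CPM, and the mural markers of 1141 and 1284 CPM with RGS5 among them. The part of these in the stage differences and in their difference between the gates was not tested.

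Within the TP63 gate, nuclei with an OXTR UMI (13 to 163 a library) were set beside those without. MYH11 was higher in OXTR nuclei in 10 of 10 libraries, at 499 to 4792 CPM against 64.8 to 1211 CPM, with a median ratio of 7.31 and a range from 1.74 to 64.5. ACTA2 and MYLK were also higher in 10 of 10, with median ratios of 6.97 and 5.79. Among the other members LMOD1 was higher in 8 of 10 and the rest in 10 of 10, with median ratios from 2.32 for TPM1 to 6.39 for CNN1. KRT14, a basal keratin outside the set, was higher in 10 of 10 with a median ratio of 2.48, while EPCAM was higher in 2 of 10 and CSN2 in 0 of 10. OXTR nuclei held a median of 2733 UMIs against 2073. How many of all genes were higher in OXTR nuclei was not counted, so these counts are not shown to be particular to the members. In OXTR nuclei MYH11 had a median of 2622 CPM over the lactation libraries and 2933 CPM over the others. In nuclei with no OXTR UMI the medians were 127 and 648 CPM. MYH11 in OXTR nuclei was at 4178 and 4792 CPM in L0 sows but at 499 and 1066 in L20 sows. Outside lactation it ran from 1087 to 3302 CPM, between the 2 lactation stages. ACTA2 in OXTR nuclei was at 2900 and 3683 CPM in L0 sows, 90.7 and 1337 in L20 sows, and 552 to 1526 outside lactation. These values rest on 27 and 23 OXTR nuclei at L0 and on 13 and 64 at L20. Of the other members in OXTR nuclei, ACTA2 (2119 in lactation and 865 outside it), MYLK (1604 and 1439), CNN1 (88.5 and 53.8), CALD1 (2559 and 1517), TPM1 (3863 and 3334) and TPM2 (445 and 324) had the higher median CPM in lactation, and TAGLN (130 and 166) and LMOD1 (20.9 and 27.7) outside it. These differences between groups were not tested.

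**Figure D4:**
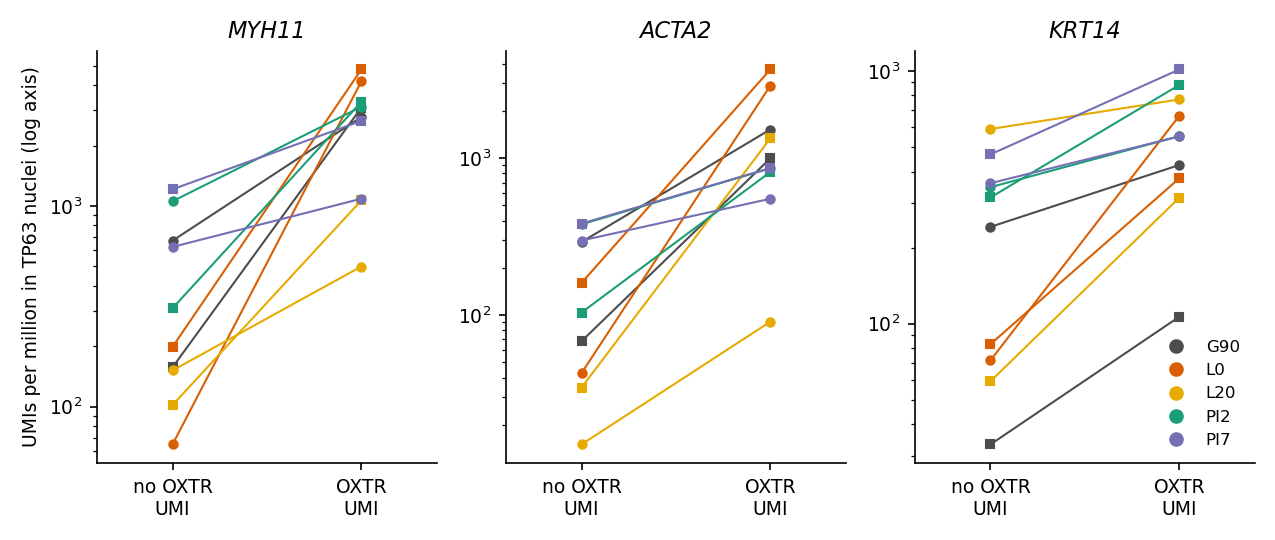
Lines join TP63 nuclei without and with an OXTR UMI in each of 10 libraries for MYH11, ACTA2 and KRT14, in CPM on a log axis, coloured by stage. All 10 lines rise in each panel, with median ratios of 7.31, 6.97 and 2.48.

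Likeness to OXTR and MYH11 was measured as Pearson's r on log2(CPM + 1) over 67 sums of a gate in a library with at least 20 nuclei, among 10120 genes. The sums share libraries and depth, so r describes them and has no p. Of genes outside the set and the gate markers, ID4 (0.67), NIBAN1 (0.65), ADAMTS3 (0.60), ISM1 (0.58) and STC2 (0.58) were most like OXTR. SYNPO2 (0.83), DACH1 (0.79), NIBAN1 (0.75), ID4 (0.74) and LIMS2 (0.70) were most like MYH11. Within the set OXTR was most like MYH11 (0.69) and MYLK (0.65) and least like TPM2 (0.24), and MYH11 was most like ACTA2 (0.88).

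In the sections each spot covers several cells, and 1 section a stage allows no test. Intervals at 95% are exact and cover counting error only. OXTR was at 44.4 CPM (42.4 to 46.4) over 4721 spots at G90 and at 18.3 CPM (16.4 to 20.4) over 2248 spots at PI2, a ratio of PI2 to G90 of 0.413 (0.366 to 0.464). A UMI of OXTR was present in 30.5% of spots at G90 and 12.1% at PI2, with medians of 8062 and 5927 UMIs a spot. In TP63 nuclei the same 2 stages had 64.8 and 27.5 CPM in G90 sows and 114 and 79.2 CPM in PI2 sows, and in sums over all nuclei, the closer match to a section, 16.2 and 2.45 CPM and 12.6 and 5.61 CPM, which overlapped. Of the 10 members 6 were higher in the PI2 section. LMOD1 had the highest ratio, 3.89 (3.55 to 4.27), followed by TAGLN with 1.85 (1.81 to 1.88), TPM2 with 1.58, CNN1 with 1.49, MYH11 with 1.41 and CALD1 with 1.38. Lower at PI2 beside OXTR were ACTA2 (0.716), MYLK (0.724) and TPM1 (0.859). Spots were also divided by a TP63 or an RGS5 UMI. At G90 OXTR was at 52.6 CPM (45.8 to 60.2) in spots with TP63 and no RGS5, 42.3 CPM (39.2 to 45.6) in spots with RGS5 and no TP63 and 42.2 CPM (39.3 to 45.4) in spots with neither, and MYH11 at 298, 306 and 274 CPM. At PI2 OXTR was at 20.1 CPM (13.5 to 28.7), 18.1 CPM (15.1 to 21.5) and 16.9 CPM (14.1 to 20.2) in the same order. TAGLN at PI2 was lower in spots with TP63, at 1078 CPM (1026 to 1132), than in spots with RGS5, at 1366 CPM (1339 to 1394). It was highest in spots with neither, at 1547 CPM. LMOD1 at PI2 was at 41.5 CPM (31.8 to 53.2), 69.7 CPM (63.6 to 76.1) and 76.1 CPM. Correlation over spots with at least 1000 UMIs, on log2(CPM + 1), was low, at 0.253 or below for every member with KRT14 or RGS5. An RGS5 UMI was present in 37.9% of these spots at G90 and 39.0% at PI2, so such values cannot place a gene. Pearson's r of TAGLN was 0.112 with KRT14 and 0.006 with RGS5 at G90, and 0.153 and 0.029 at PI2. For LMOD1 it was 0.061 and 0.047 at G90, and 0.013 and 0.077 at PI2.

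In milk most contraction genes had few UMIs, and the tropomyosins and TAGLN had more. OXTR had 26 UMIs in 17571 cells of the L0 sample, 0.321 CPM (0.210 to 0.470), and 13 UMIs in 14514 cells of the L20 sample, 0.303 CPM (0.161 to 0.518). The share of cells with an OXTR UMI was 0.102% (0.0607% to 0.162%) and 0.0620% (0.0284% to 0.118%). Cells with a TP63 UMI and no RGS5 UMI numbered 146 in the L0 and 22 in the L20 sample, and held 1 and 0 of the OXTR UMIs, while luminal cells held 12 and 4. MYH11 was at 1.96 and 3.52 CPM, and immune cells held 57 of its 159 UMIs at L0 and 84 of 151 at L20. ACTA2 was at 0.111 and 0.908 CPM from 9 UMIs in 9 cells and 39 UMIs in 11 cells, of which immune cells held 1 and 33 UMIs. The ACTA2 values thus rest on a handful of cells. TPM1 was at 123 CPM in the L0 and 252 CPM in the L20 sample, a ratio of 2.05 (2.00 to 2.11), with 4103 of 9930 and 6492 of 10820 UMIs in luminal cells. TPM2 was at 72.9 and 32.2 CPM in the whole samples, a ratio of 0.441 (0.416 to 0.468), and TAGLN at 11.7 and 11.9 CPM. Within luminal milk cells both were higher in the L20 sample, TPM2 at 109 CPM (105 to 114) and 138 CPM (128 to 148) and TAGLN at 20.9 CPM (19.0 to 23.0) and 49.5 CPM (43.8 to 55.7). The milk samples have 1 library a stage, so their differences have no replicate check.

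**Figure D5:**
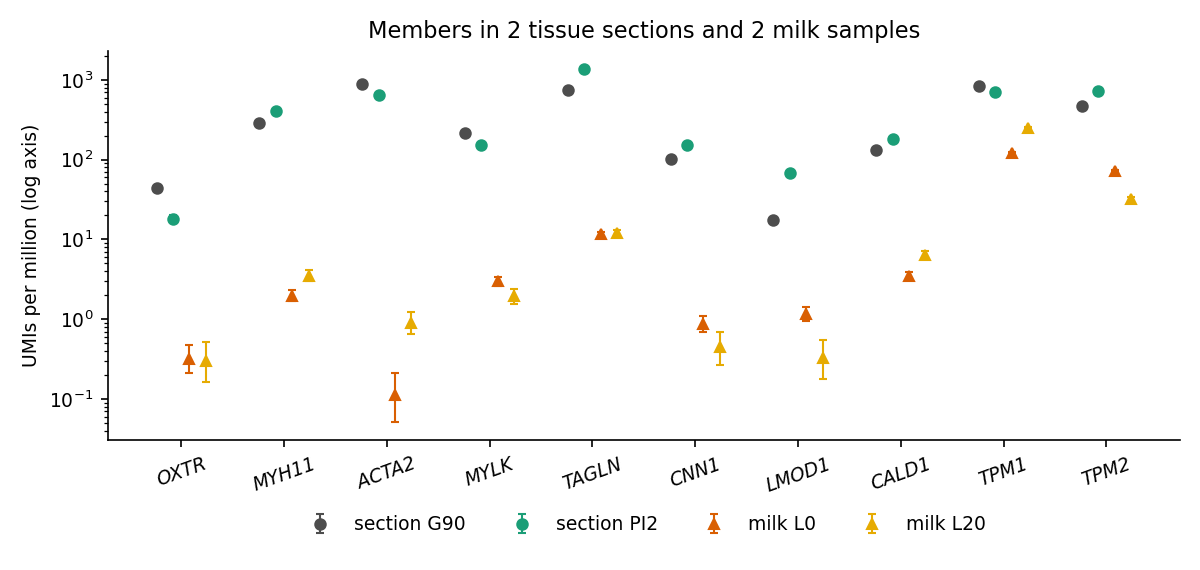
Points give the CPM of the 10 members in the 2 sections (circles) and the 2 milk samples (triangles) on a log axis, with exact 95% intervals for counting error. OXTR stands at 44.4 and 18.3 in the sections and at 0.321 and 0.303 in milk.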

How the data were processed

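Single-nucleus libraries of 10 glands, 2 Visium sections and 2 milk samples were used. Per the labels and the methods of the study, the authors counted UMIs of GEXSCOPE libraries with CeleScope on Sscrofa11.1, and of the sections with Space Ranger, whose version is 1.2.0 in the labels and 1.3.1 in the file header. The deposited counts are whole UMIs per gene and barcode with no normalization, and their annotation release is not stated in the sources read. Some identifiers had no symbol in the files, and 676 took 1 from the RefSeq table of Sscrofa11.1.

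The nuclei and milk cells kept had 300 or more genes and no more than 25% mitochondrial UMIs, which left 126833 of 128233 nuclei. Doublets were not removed. UMIs were summed per gate and library, so the sow is the replicate. Tests used edgeR 4.0.16 (quasi-likelihood, TMM, filter on low counts, Benjamini-Hochberg over all genes) in 1 fit over 5 stages, or with the library as a block between gates. DESeq2 1.42.0 was an alternative. The fits were tested on simulated data: in TP63 nuclei, with a coefficient of variation of 0.5, 62% of genes changed by a log2 of 2 and 93% of those changed by 3 were recovered. The biological coefficient of variation over all genes was 0.452 there (edgeR common dispersion). Changes below a log2 of 2 and changes in genes with few UMIs were not simulated. Recovery of differences the size of the members' in lactation in TP63 nuclei (-1.66 to 0.11) is therefore not known. Sections and milk samples, 1 a stage, have exact intervals and no test. Genes named in the text are the 10 members, the pathway genes called between TP63 and RGS5 nuclei or in a lactation contrast, KCNMB1 (picked after its values were seen), gate markers, and the 5 genes most like OXTR and MYH11. The members and lists were chosen with earlier results of these data known.

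With 2 sows a stage, p-values of the stage contrasts measure the spread between these sows. Between gates, with the library as a block, they measure the spread of the gate difference over the libraries of all stages. For the interaction they measure the spread of that difference between sows of a stage. Alternatives were total UMIs in place of TMM, no filter on low counts, DESeq2, the replicate block, stricter filters on nuclei, other gates, thinning to 500 UMIs and each library left out. Histology and spot positions were not used here. The values of 1 pathway gene and the promoter windows of members other than OXTR are not reported here.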

Additional observations from a re-analysis of the deposited data

Results flagged for a closer look

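The 3 values below stood apart from the other libraries of their group, by the gap to the nearest library over the range of the group. Chance flags about 1 in 20 groups, and 64 groups were tested. TAGLN in TP63 nuclei was at 35.9 CPM in L0 replicate 1 and between 24.9 and 26.3 CPM in the other lactation libraries. CNN1 in RGS5 nuclei was at 150 CPM in L0 replicate 1 (39 UMIs) and between 0 and 19.4 CPM in the other lactation libraries. CALD1 in TP63 nuclei was at 2320 CPM in PI2 replicate 2 and between 355 and 940 CPM in the other libraries outside lactation.

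The interaction term in edgeR called 6 of the 10 members and 52 listed pathway genes tested, beside 48 of all 12692 genes (0.378%). For these 6 the difference between lactation and the other stages was called different in TP63 and in RGS5 nuclei. The log2 values, TP63 minus RGS5, were -2.16 for MYH11, -1.53 for MYLK, -1.58 for TAGLN, -1.99 for EDNRA, -1.82 for FLNA and -1.37 for TPM4. DESeq2 gave adjusted p from 0.077 to 0.31 for the first 5 of these, called no member, and gave 0.025 for TPM4. Without L0 replicate 1, which also holds 2 of the 3 values above, 0 members were called and MYH11 was at -0.92.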

How the results depend on the processing

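The counts of members called in TP63 against RGS5 nuclei (4) and against luminal nuclei (8) kept to 3 to 6 and 6 to 9 under every alternative run. Leaving out each library in turn gave 4 to 5 and 7 to 8, 0 to 0 in the stage contrasts, and 0 to 7 for the difference between the gates. That last count was 3, 5 with no filter on low counts, 0 with DESeq2, 0 with at least 2 gate UMIs, 1 with at least 2 markers, 1 thinned to 500 UMIs and 0 with no UMI of another gate, a gate chosen after seeing the data. Counts of 0 became 1 with DESeq2 between adjacent stages in the whole gland, beside 2.09% of all gene tests. Between adjacent stages in TP63 nuclei they became 4 with no filter (1884 of 104268 gene tests called) and 1 with DESeq2 (2.52% of all). For lactation in TP63 nuclei they became 2 with no filter (470 of 26067 genes called) and 2 with DESeq2 (3.17% of all). With the replicate block 0 members were called in the stage contrasts, as without it. The numbers were not taken to pair sows, since same-numbered sows deviated together with a correlation over 0.1 in 2 of 10 stage pairs (-0.47 to 0.36). The cause of these shifts was not tested. Depth limits the RGS5 gate, with 51477 UMIs in its smallest library, and the adipocyte gate more, with 9591. Fits with RGS5 nuclei left out G90 replicate 2 with at least 2 gate UMIs, and L0 replicate 2 with no UMI of another gate. Each had fewer than 10 RGS5 nuclei there.

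Signs of single values turned as follows, all log2. Lactation in the whole gland: LMOD1 was at -0.10 with total UMIs and -0.050 with the strict filter of 500 genes and 5%. Lactation in TP63 nuclei: with at least 2 markers OXTR was at 0.15, CNN1 at 0.25, LMOD1 at 0.096, CALD1 at 0.034 and TPM2 at 0.52, and TPM1 was at -0.084 with total UMIs and -0.19 with no UMI of another gate. Lactation in RGS5 nuclei: MYH11 was at -0.051 with the strict filter, ACTA2 at 0.43, MYLK at -0.12, CALD1 at -0.19 and TPM1 at -0.14 with no UMI of another gate, and, thinned, MYLK at -0.046, TAGLN at -0.30 and TPM1 at -0.046. CALD1 was at -0.039 and TPM1 at -0.44 with at least 2 gate UMIs, and TPM1 at -0.045 with total UMIs, -0.015 with no filter and -0.028 with the replicate block. TP63 against RGS5 nuclei: with at least 2 markers MYH11 was at -1.17, MYLK at -0.065, TPM2 at -0.64 and ADRA1A at 0.47, CNN1 was at 0.29 with DESeq2, and CNN1 and CALD1 were at 0.33 and 0.22 with no UMI of another gate. TP63 against luminal nuclei: TPM1 was at 0.10 with total UMIs, 0.031 with DESeq2, 0.24 with at least 2 gate UMIs, 0.018 with at least 2 markers and 0.19 with no UMI of another gate. Difference between the gates: OXTR was at -1.06 thinned, ACTA2 at 0.022 with at least 2 markers, and TPM1 at -0.052 with total UMIs and -0.43 with no UMI of another gate.

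Leaving out libraries turned these signs. In the whole gland CNN1 ran from -0.52 to 0.26, LMOD1 from -0.24 to 0.23, TPM1 from -0.995 to 0.66 and TPM2 from -1.09 to 1.05. In TP63 nuclei LMOD1 ran from -1.40 to 0.22, TPM1 from -0.61 to 0.47 and TPM2 from -1.06 to 0.25. In RGS5 nuclei ACTA2 ran from -1.14 to 0.50, MYH11 from -0.46 to 0.99, MYLK from -0.14 to 0.62, TAGLN from -0.11 to 0.88, TPM1 from -0.65 to 0.39 and TPM2 from -0.074 to 1.01. Between gates CNN1 ran from -0.46 to 0.52 against RGS5 and TPM1 from -0.15 to 0.071 against luminal nuclei. For the difference between the gates OXTR ran from -0.091 to 1.62, ACTA2 from -1.53 to 0.35, CNN1 from -4.58 to 0.10, LMOD1 from -3.60 to 1.62 and TPM1 from -0.10 to 0.33.

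Over all genes, TP63 against RGS5 nuclei gave 699 calls of 12692 genes tested (26.6% higher), and 176 of 9276 without the library as a block. The calls were 1147 of 8018 (40.0%) with at least 2 gate UMIs and 1608 of 13859 (41.7%) with at least 2 markers. They were 394 of 7508 (37.6%) thinned and 812 of 8078 (61.7%) with no UMI of another gate. TP63 against luminal nuclei gave 834 calls of 17615 genes tested (94.0% higher), 1183 (69.2%) with at least 2 gate UMIs, 2513 (59.5%) with no UMI of another gate and 244 without the library as a block. The difference between the gates gave 48 calls of 12692 genes tested (12.5% higher), 9 with DESeq2 and 9 with at least 2 gate UMIs. Stage contrasts with 0 or 1 calls gave more with no filter, 305 of 114828 gene tests and 28 of 28707 in the whole gland. With no filter they gave 1884 of 104268 and 470 of 26067 in TP63 nuclei and 32 of 23747 in RGS5 nuclei. In the same order DESeq2 gave 1579 (2.09% of those with an adjusted p), 120 (0.672%), 1253 (2.52%), 261 (3.17%) and 15 (1.14%).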
